A study of Mus musculus with 12 samples.

Results

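The comparison follows the acetylated RNA of mouse peritoneal macrophages from 24 h to 48 h of interferon-γ. A gene was called lost at 48 h when both 24 h peak lists held a peak in it and neither 48 h list did, and gained in the reverse case. It was called kept when all 4 lists held it. By this rule 59 genes were lost and 46 were gained, together 105 of the 1428 genes with a peak in any of the 4 lists and of the 2060 genes with a peak in any of the 6 lists of the series. The same rule on merged peak regions gave 110 of 1849, 58 lost and 52 gained. For each gene the 0 h lists then showed whether a peak had been present at the start of treatment. The lists of 24 h and 48 h chose the genes, so the enrichments in those lists are given as a description and are not tested.

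Macrophages from the peritoneal cavity were cultured in medium with serum and antibiotics and incubated with IFN-G, the cytokine interferon-γ, for 0, 24 or 48 h. The series holds 12 samples in 6 groups of 2: at each time 1 group of ac4C-binding RNA, pulled down for the modification, and 1 group of total RNA. Strain, age and number of animals are not given in the labels used here, and no label tells whether a group's samples are of different animals or cultures. A p-value below therefore measures only the spread between lists, which may be technical. All cells that were kept for 24 h or 48 h received interferon-γ, so its effect and that of time in culture cannot be told apart. There are 2 deposited peak lists per time, named by hour and number only, and list 1 and list 2 of a time are in no order. Because the RNA is from bulk cultures, fewer cells of a type and less RNA per cell cannot be told apart.

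N4-acetylcytidine (ac4C) is a cytidine with an acetyl group, written into RNA by the acetyltransferase NAT10, and it is best known from ribosomal and transfer RNA. In messenger RNA it has been linked to stability and to translation efficiency. Interferon-γ signals through its receptor and the kinases JAK1 and JAK2, and turns macrophages towards antimicrobial defence and antigen presentation, whereas interleukin-4 acts through STAT6 towards repair. The peaks below mark where the pull-down was enriched over the control coverage that the peak caller used, called input here.

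The 24 h lists held 725 and 646 peaks in 609 and 561 genes, and the 48 h lists 674 and 611 peaks in 594 and 526 genes. The mean was 685.5 ± 55.9 peaks at 24 h and 642.5 ± 44.5 at 48 h (SD, n = 2 lists each), a log2 ratio of -0.09 that was within the spread of the lists (two-sided exact permutation p = 0.667). With 2 lists against 2 the smallest p is 0.333, so no difference between the times could pass 0.05. The ratio turned to 0.26 at matched depth and to 0.42 at a fold of 4 or more. The 24 h lists covered 214.3 ± 22.9 kb and the 48 h lists 187.4 ± 0.876 kb (SD over n = 2 lists; two-sided exact permutation p = 0.333), a log2 ratio of -0.19 that turned to 0.12 and 0.39 under those settings. Recovered input coverage stood at 91.2% and 100% of the deepest of these lists for 24 h and at 70.8% and 55.1% for 48 h. Pull-down coverage stood at 100% and 98.0% for 24 h and at 78.0% and 68.5% for 48 h. Both 48 h lists were thus shallower than both 24 h lists, and depth is given beside each count that moved with it. Folds from lists of different depth are not on the same scale, so a limit on fold does not bear alike on both times. Of the 12 macrophage markers 2 carried a peak in the 4 lists, and ac4C peaks are not a measure of expression. No peak lay in any of the 10 B cell, 11 T and NK cell, 8 mast cell, 8 fibroblast, 9 neutrophil, 8 dendritic cell or 7 eosinophil markers, and 1 of 8 mesothelial markers, Wt1, was held by 1 of the 48 h lists.

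Lost genes made up 4.13% of the 1428 genes and gained genes 3.22%. Of the 222 genes in both 24 h lists, 26.6% were lost by 48 h, 90 were kept in all 4 lists and 73 remained in 1 of the 48 h lists. Of the 205 genes in both 48 h lists, 22.4% were gained and 69 had been in 1 of the 24 h lists. A further 203 genes were in 1 list of each time, and 888 were in 1 of the 4 lists only, 454 at 24 h and 434 at 48 h. Lists of the same time shared about as many genes as lists of different times. The 24 h lists had 222 genes in common, 36.5% and 39.6% of each, and the 48 h lists 205, 34.5% and 39.0% of each. A 24 h list shared between 34.0% and 38.3% of its genes with a 48 h list.

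**Figure D1:**
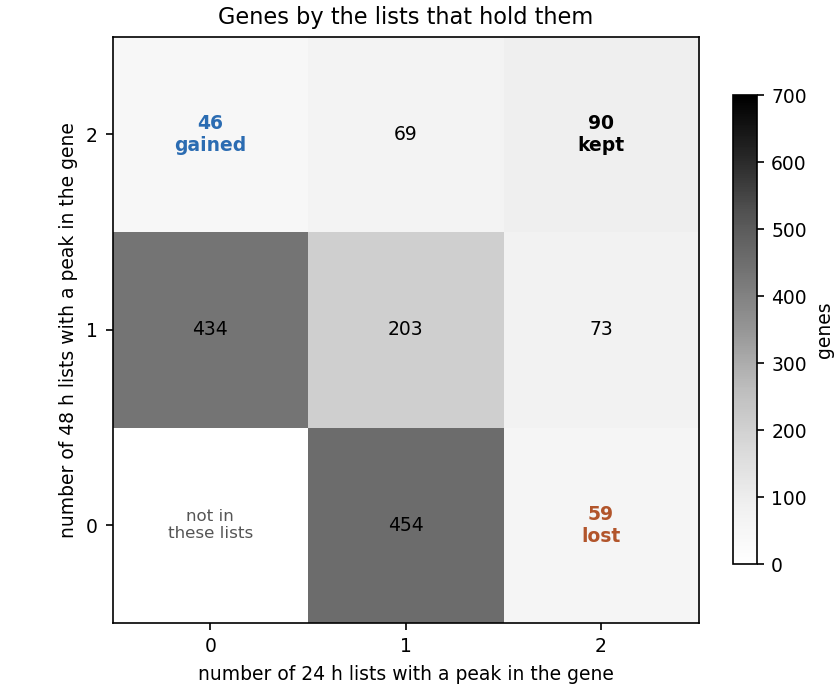
Number of genes by how many 24 h lists (horizontal axis, 0 to 2) and how many 48 h lists (vertical axis, 0 to 2) hold a peak in them; darker squares hold more genes. The 59 lost and 46 gained genes sit in opposite corners, beside 90 kept genes and 888 genes that a single list holds.

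The count of lost genes moved with depth, and that of gained genes changed by 1 gene on net. When fragments and input were scaled down to the shallowest 48 h list, 30 of the 59 genes were still lost, 23 had a peak left in 1 of the 24 h lists and 6 had none. Under the same scaling 47 genes were gained, and 37 of them were among the 46, while the other 9 of the 46 were gained no more. The scaling left the shallowest 48 h list unchanged and could only remove peaks from the other lists. A gained gene could thus fail only through 48 h list 1, and a lost gene through either 24 h list. The counts of lost and gained genes at matched depth are therefore not an equal comparison. A q of 0.05 or less in every list left 22 lost and 23 gained genes, and a fold enrichment of 4 or more left 7 and 21. That fold limit left 147 and 122 peaks in the 24 h lists and 192 and 167 in the shallower 48 h lists. Folds from lists of different depth are not on the same scale, so the 7 and 21 are not an equal comparison either. Every single list bore on the counts by the way the rule is built. Without 24 h list 1 there were 282 lost and 89 gained genes, and without 24 h list 2 there were 290 and 72. Without 48 h list 1 the counts were 94 and 244, and without 48 h list 2 they were 97 and 282.

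**Figure D2:**
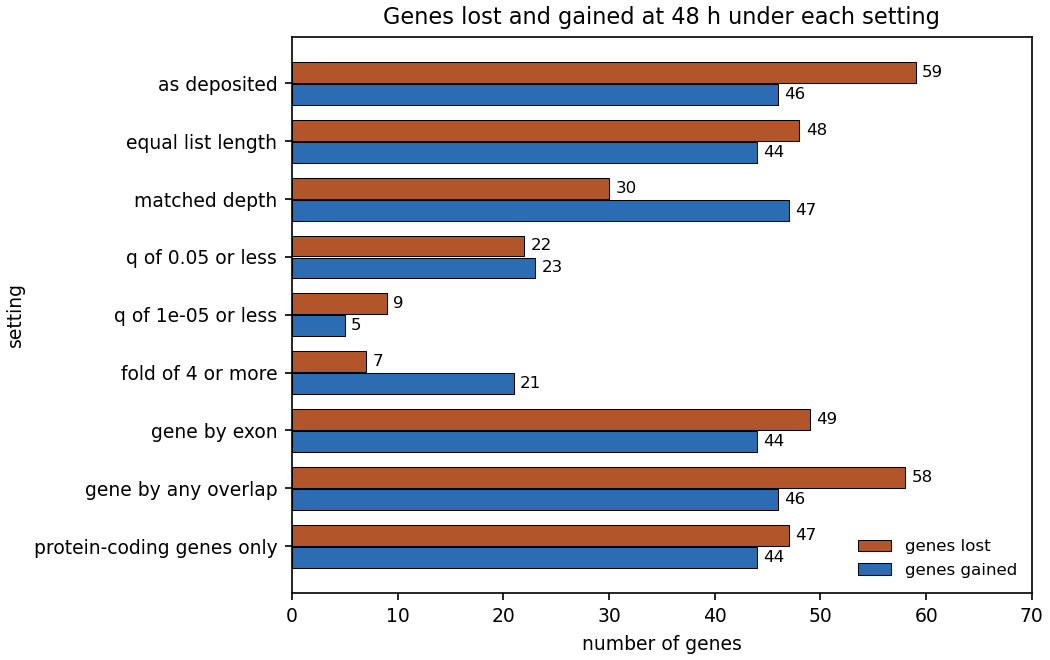
Number of genes lost (brown) and gained (blue) at 48 h under each setting, with the lists as deposited at the top. Lost genes outnumber gained genes as deposited (59 and 46), and gained genes outnumber lost genes at matched depth (47 and 30) and at a fold of 4 or more (21 and 7). Matched depth left the shallowest 48 h list unchanged and thinned both 24 h lists, so it bore unequally on lost and gained genes. Folds from lists of different depth are not on the same scale, so the fold limit is not an equal comparison either.

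Peaks of lost genes were weaker by p than those of all genes of their lists, and peaks of gained genes lay close to them. Fold enrichment, p and q of a peak are the authors' values, and the strongest peak in a gene stands for the gene. In the 24 h lists the lost genes had a median fold of 3.09 and 3.08 and a median −log10 p of 4.4 and 4.18, against 5.19 and 4.94 over all genes of those lists. In the 48 h lists the gained genes had a median fold of 3.12 and 3.67 and a median −log10 p of 4.87 and 5.63, against 5.08 and 5.25 over all genes. Kept genes had a median −log10 p between 7.11 and 9.29 in the 4 lists. Only 9 of the 59 lost genes and 14 of the 46 gained genes reached a q of 0.05 or less in both lists that held them. The median lost gene rested on 44 and 45 pull-down fragments at its summit in the 24 h lists, and the median gained gene on 52 and 41.5 in the 48 h lists.

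**Figure D3:**
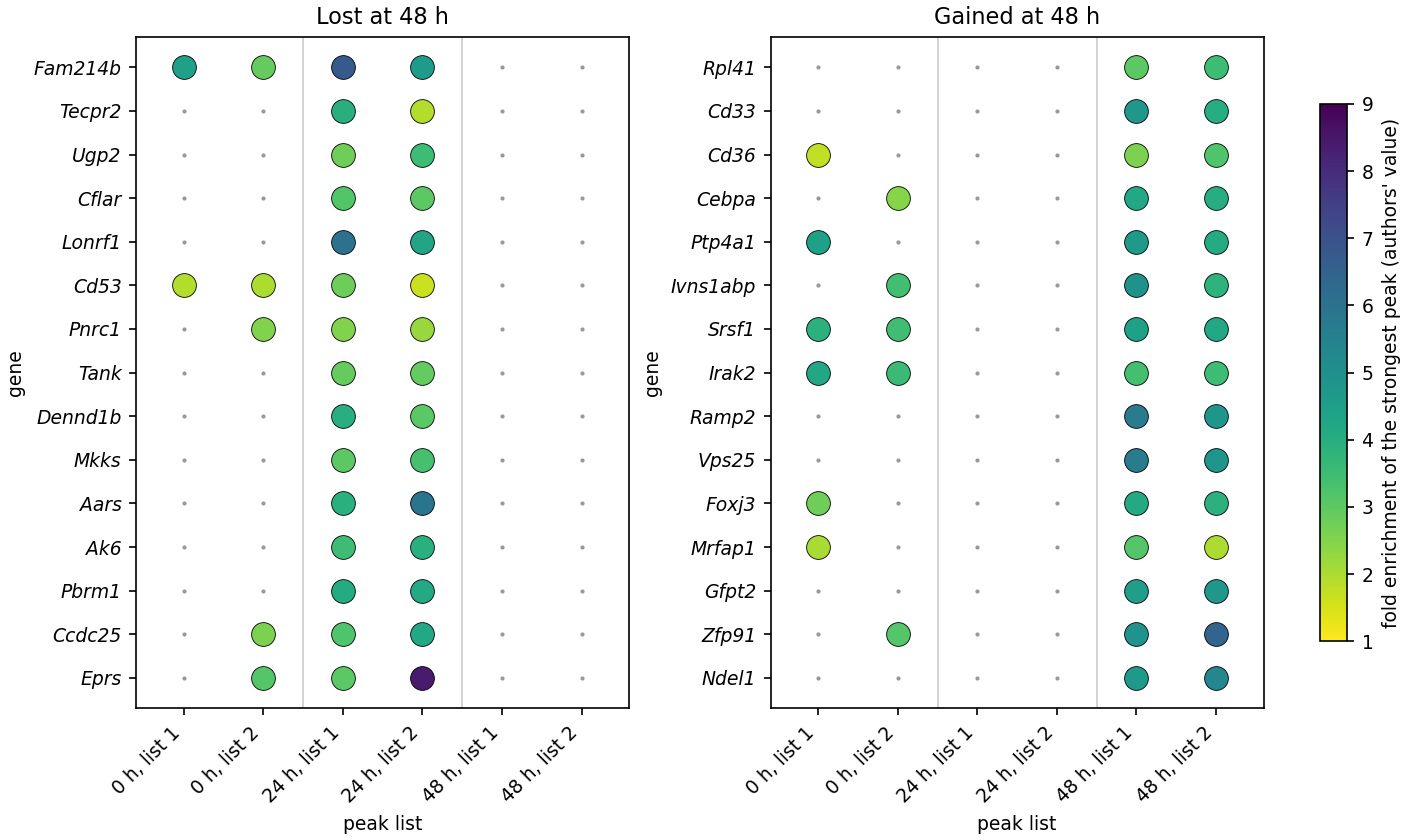
Fold enrichment of the strongest peak (colour, authors' value) in each of the 6 lists for the 15 lost and the 15 gained protein-coding genes ranked highest; a small dot marks a list without a peak in the gene. By the rule the lost genes have circles in both 24 h lists and none at 48 h, and the 0 h columns, which the rule did not read, are filled for 5 of the 15 lost and 9 of the 15 gained genes.

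Among lost genes ranked highest by the weaker of their 24 h peaks, Fam214b (ENSMUSG00000036002) came first. Its 3′ UTR peak at chr4:43032713-43033017 (GRCm39, as are all positions here) had a fold enrichment of 6.76 and 4.61 in lists 1 and 2 of 24 h and of 4.47 and 2.90 in those of 0 h, and neither 48 h list held it. The summit held 96 and 92 fragments at 24 h and 63 and 66 at 0 h, so the 0 h and 24 h lists all held the peak. Lonrf1, a RING finger protein of the ubiquitin system, had 3′ UTR folds of 5.99 and 4.29 at 24 h and no peak at 0 h or 48 h. Both genes were also lost at matched depth and at a fold of 4 or more. Tecpr2, a regulator of autophagy, ranked between them with folds of 3.95 and 1.91 at chr12:110864643-110864966. That peak lies in intron 3 of Tecpr2 and in the last exon of the pseudogene Rps19-ps6, both counted as lost, and reads of a pseudogene and of its parent gene may not be separable.

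Several lost genes encode receptors and signalling proteins of immune cells. Stat6 (ENSMUSG00000002147), the transcription factor of interleukin-4 signalling, had a 5′ UTR peak at chr10:127478897-127479128 with folds of 4.65 and 2.31 at 24 h and of 2.23 and 2.58 at 0 h. It was thus in all 4 lists of 0 h and 24 h and in neither list of 48 h, but at matched depth only 1 of the 24 h lists still held it. Cd53, a tetraspanin of leukocytes, had 3′ UTR folds of 2.80 and 1.64 at 24 h and of 1.92 and 1.99 at 0 h, on 338 and 261 fragments at 24 h, and it stayed lost at matched depth. Cflar, which encodes the caspase-8 inhibitor c-FLIP, had 3′ UTR folds of 3.18 and 3.03 at 24 h only. The 2 lists placed its peaks in different regions, so no single region of Cflar was lost. Tank, an adaptor of TBK1 and TRAF signalling, had folds of 2.89 and 2.91 in its last exon at 24 h and no peak at any other time. Cflar and Tank were lost at matched depth as well.

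Il7r, Tnfrsf1b and Ms4a6c were further lost genes of immune cells. Il7r, the interleukin-7 receptor chain, had 3′ UTR folds of 1.60 and 1.55 at 24 h and no peak at 0 h. Tnfrsf1b, the TNF receptor TNFR2, had 1.47 and 1.36 at 24 h in a 3′ UTR region. In list 2 of 0 h that region had 1.68, and the gene's strongest peak, at 2.63, lay outside it. Ms4a6c, a membrane protein of the MS4A family, had 3.57 and 3.80 in the 24 h lists, in the 3′ UTR in list 1 and in exon 3 in list 2, and its list 1 peak is annotated to BE692007 as well. At matched depth neither 24 h list held Il7r or Tnfrsf1b, so the call of both ended, while Ms4a6c stayed lost. Il7r and Tnfrsf1b fall outside the naming rule, as do Ddx5, Apobec1, Eif3j2, Chmp5, Snx33, Myof and Med10 below; these were chosen after their values were seen.

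Lost genes of protein synthesis included 2 tRNA synthetases. Aars, the alanyl-tRNA synthetase, had a 5′ UTR peak with folds of 3.93 and 5.93 at 24 h at chr8:111760672-111760895 and none at 0 h. Eprs, the glutamyl-prolyl-tRNA synthetase, had folds of 3.05 in exon 19 and 8.41 in exon 18 at 24 h and of 3.14 in exon 19 in list 2 of 0 h. The 8.41 was the highest fold of any lost gene in the 24 h lists, and the peaks of its lists lay in different exons. Etf1, the release factor eRF1, had 2.00 and 2.56 in exons 8 and 10, and Gnl3, the nucleolar GTPase nucleostemin, had 2.68 and 3.52 in exon 2. Eif3j2, a copy of an initiation factor subunit, had 3.09 and 2.01 at 24 h and 2.72 in list 1 of 0 h. The ATPase Ola1 had 3.30 in intron 6 and 3.68 in the 3′ UTR at 24 h, and a 3′ UTR peak in both 0 h lists at 2.64 and 2.39. Aars, Eprs and Ola1 were lost at matched depth, while Etf1, Gnl3 and Eif3j2 were left in 1 of the 24 h lists.

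Ugp2, Nampt and Atp6v1h encode metabolic proteins, and Stx4a, Chmp5 and Snx33 proteins of membrane traffic. Ugp2 makes UDP-glucose, the donor for glycogen synthesis, and had folds of 2.76 and 3.53 at 24 h, in the 5′ UTR in list 1 and in the 3′ UTR in list 2. It lay on 5 merged regions, of which 1 had the lost pattern itself. Nampt, the enzyme of NAD salvage, had 2.52 and 2.02 at 24 h and no peak at 0 h. Atp6v1h, a subunit of the lysosomal proton pump, had 4.48 and 2.53 at 24 h, and its 0 h peak, at 2.66 in list 1, lay in another region. The SNARE protein Stx4a had 2.49 and 3.38 at 24 h with 2.24 in list 1 of 0 h. Its peak in list 2 of 0 h, at 3.93, lay outside the lost region. The ESCRT subunit Chmp5 had 3.13 and 2.96 at 24 h with 1.81 and 1.85 at 0 h. The sorting nexin Snx33 had 3.93 and 3.47 at 24 h with 3.79 in list 2 of 0 h. The membrane repair protein Myof had 2.26 and 2.64 at 24 h and 2.54 in list 2 of 0 h. Of Nampt, Atp6v1h, Stx4a and Myof, none was lost at matched depth, where 1 of the 24 h lists held each, and Ugp2, Chmp5 and Snx33 stayed lost.

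Nuclear and RNA-binding proteins were also among the lost genes. Pbrm1, a subunit of the PBAF chromatin remodeller, had folds of 4.12 and 4.18 at 24 h in exons 26 and 16, and Setd5 had 5.22 in exon 18 and 2.44 in the 3′ UTR. The mediator subunit Med10 had 3.89 and 3.38 at 24 h and 4.01 in list 2 of 0 h. Ddx5, an RNA helicase, had 3′ UTR folds of 2.28 and 1.62, and Zc3h12c, a member of the regnase family of RNases, had 3.21 and 2.25, both at 24 h only. Apobec1, a cytidine deaminase that edits RNA, had an intron 5 peak at 2.34 and 3.24 at 24 h and at 1.90 in list 1 of 0 h. At matched depth Pbrm1 stayed lost, and Setd5, Med10, Ddx5, Zc3h12c and Apobec1 were each left in 1 of the 24 h lists, which ends their call. The remaining genes of the 15 ranked highest were Pnrc1, Dennd1b, Mkks, Ak6 and Ccdc25, with folds between 2.24 and 4.21 at 24 h. Of these 5, Pnrc1 had a 0 h peak at 2.52 in list 2 and Ccdc25 one at 2.59 in list 2.

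Lost genes that do not code for protein numbered 12 of the 59: 8 pseudogenes, 3 lncRNAs and 1 gene without a match in the reference table. The 3 highest were 4930430E12Rik, with folds of 2.54 and 2.60 at 24 h and 2.64 and 2.46 at 0 h, Rps19-ps6 on the peak it shares with Tecpr2, and Gm12693, with 3.44 and 2.44 at 24 h and 3.47 and 1.88 at 0 h. 4930430E12Rik lay on 2 merged regions of the lost pattern, with its strongest peak in the last intron and the other region in an exon. The gained genes held no pseudogene and 2 lncRNAs. All 1428 genes with a peak in the 4 lists held 97 pseudogenes, 34 lncRNAs and 63 genes without a match. AA467197, counted as protein-coding and the host gene of Mir147, was lost with 2.86 in intron 2 and 3.24 in its last exon, the latter over Mir147. Vmn2r53 and Cnbd2 were lost through intron peaks that lie on the pseudogenes Gm15773 and Gm14253, with 3.81 and 3.14 for the former and 1.97 and 2.19 for the latter. Further lost genes are Pcgf3, Zfp608, Gm6563, Gm8130, Gm10250, BE692007 and Gm26512, with folds between 1.70 and 4.12 at 24 h. At matched depth AA467197, Vmn2r53, Cnbd2, Pcgf3, Gm8130, BE692007 and Gm26512 were no longer lost. Vmn2r53, Cnbd2, their pseudogenes and these further genes fall outside the naming rule and were chosen after their values were seen.

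Genes gained at 48 h were led by Rpl41 (ENSMUSG00000093674), a protein of the large ribosomal subunit. Its last exon peak at chr10:128384031-128384257 had folds of 3.01 and 3.51 in lists 1 and 2 of 48 h on 335 and 334 fragments, and no 0 h or 24 h list held it. Cd33 (ENSMUSG00000004609), an inhibitory receptor that binds sialic acid, had a 3′ UTR peak at chr7:43176495-43176809 with 4.73 and 4.05 at 48 h and none earlier. It lay on 2 merged regions and both had the gained pattern. Rpl41 and Cd33 were the only gained genes of the 46 that remained so at a q of 1e-05 or less.

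Cd36 and Cebpa ranked next among the gained genes. Cd36, the scavenger receptor for oxidised lipids, had 3′ UTR folds of 2.59 and 3.21 at 48 h, none at 24 h and 1.75 in list 1 of 0 h. The 0 h peak rested on 552 fragments over an input of 137, against 191 and 167 fragments over 21.0 and 12.8 at 48 h. Cebpa, a transcription factor of the myeloid lineage, had 3′ UTR folds of 4.19 and 4.00 at 48 h. Its 0 h peak, at 2.46 in list 2, lay outside the gained region. Clec4e, the C-type lectin Mincle that senses mycobacterial glycolipid, had 1.92 and 1.53 in its last exon at 48 h only. Cd33, Cd36, Cebpa and Clec4e stayed gained at matched depth.

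Irak2, Jak2 and Ptp4a1 encode signalling enzymes, and Fosl2, Foxj3 and Atf2 transcription factors. Irak2, a kinase of Toll-like and interleukin-1 receptor signalling, had 3′ UTR folds of 3.38 and 3.5 at 48 h and of 4.24 and 3.57 at 0 h, and no 24 h list held it. Jak2 (ENSMUSG00000024789), the kinase of the interferon-γ receptor, had a 3′ UTR peak at chr19:29289654-29290005 with 1.97 and 4.00 at 48 h and 3.15 in list 1 of 0 h. The fold of Jak2 differed more than 2-fold between the 48 h lists, and at matched depth it was in 1 of them. Ptp4a1, a tyrosine phosphatase, had 4.71 and 4.10 in exon 2 at 48 h and 4.43 in list 1 of 0 h. Fosl2, a subunit of AP-1, had 2.58 and 3.07 at 48 h and 3.25 in list 2 of 0 h. The forkhead factor Foxj3 had 4.13 and 3.88 at 48 h. In list 1 of 0 h that region of Foxj3 had 2.3, and the gene's strongest peak, at 2.76, lay outside it. Atf2, another AP-1 partner, had 2.95 and 7.29 at 48 h and 4.95 in list 1 of 0 h. At matched depth Fosl2 was left in 1 of the 48 h lists, which ends its call, while Irak2, Ptp4a1, Foxj3 and Atf2 stayed gained. Atf2 lies outside the naming rule, as do Ccn1, Ap2s1 and Grb10, and was chosen after its values were seen.

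Srsf1, Ythdf1, Eif5 and Syncrip are gained genes of RNA metabolism and translation, with their strongest peak in a 3′ UTR, as in 69.6% of all gained genes, whereas that of Rpl41 lay in the last exon. Srsf1, a splicing factor of the SR family, had 4.42 and 4.21 at 48 h and 3.88 and 3.45 at 0 h. Ythdf1, which reads N6-methyladenosine, had 3.94 and 3.01 at 48 h only, and Eif5, the GTPase activator of translation initiation, 2.62 and 2.20 at 48 h only. Syncrip, an hnRNP protein, had 3.07 in exon 9 and 3.41 in the 3′ UTR at 48 h, and 4.76 and 4.32 in exons 11 and 8 at 0 h. All 4 stayed gained at matched depth.

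Arf6, Gabarap, Vps25 and Ap2s1 are gained genes of membrane traffic and autophagy. Arf6, a small GTPase of the cell surface and endosomes, had 3′ UTR folds of 2.04 and 2.78 at 48 h and last exon folds of 3.34 and 1.91 at 0 h, within 1 merged region. Gabarap, a protein of the autophagosome membrane, had 1.97 in the 5′ UTR and 2.49 in the 3′ UTR at 48 h, and its 0 h peak lay elsewhere, in intron 2 at 1.93. Ramp2 and Vps25, a receptor partner protein and an ESCRT subunit, shared 1 peak with folds of 5.66 and 4.84 at 48 h, so it cannot be assigned to either. The clathrin adaptor subunit Ap2s1 had 2.95 and 4.49 at 48 h and 2.15 and 2.78 at 0 h. Ndel1, a regulator of dynein, had 4.68 and 5.34, and Gfpt2, an enzyme of the hexosamine pathway, 4.54 and 4.78, neither with a 0 h peak. The matricellular protein Ccn1 had 3.17 and 4.65 at 48 h and 2.66 in list 1 of 0 h, and the adaptor Grb10 2.56 and 2.67 at 48 h only. Gabarap and Grb10 were not gained at matched depth.

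The other gained genes of the 15 ranked highest were Ivns1abp, Mrfap1 and Zfp91. Ivns1abp had folds of 4.94 and 3.83 at 48 h and 3.42 in list 2 of 0 h. Mrfap1 had 3.14 and 1.97 with 2.05 in list 1 of 0 h. Zfp91 had 4.90 and 6.44 in exon 6 with 3.14 in list 2 of 0 h, on a peak it shares with the lncRNA Gm44505. The lncRNA Epb41l4aos had 3.56 and 4.91 in exon 1 at 48 h only. Phldb2, Dhrs3, Mpst, Zbtb38, Prelid3b, Irf2bpl and the pair Mak16 and Tti2, which share 1 peak, were gained as well, with folds between 2.46 and 4.22 at 48 h. These 8 genes fall outside the naming rule and were chosen after their values were seen, and at matched depth Mak16 and Tti2 were no longer gained.

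The genes kept in all 4 lists stood out by p and not by fold: their median −log10 p, given above, was above that of all genes in each list, and their median folds were below. The 8 highest by p were Kpna4, Ifrd1, Btg1, Cfl1, Ncl, Gsk3b, Arf3 and Rab7, and all 8 also had a peak in both 0 h lists. Kpna4, an importin, had an intron 12 peak with folds of 6.98 and 9.38 at 24 h and 11.6 and 12.7 at 48 h, after 8.20 and 9.31 at 0 h. The same peak, at chr3:68992478-68992760, lies in the last exon of the small guide RNA gene Gm22009, so it cannot be assigned to the importin, and with genes assigned by exon Kpna4 held a peak in 1 of the 4 lists. Ifrd1 had 4.25 and 4.11 at 24 h and 5.70 and 8.04 at 48 h. Rab7, the GTPase of late endosomes, had folds of 2.90 and 2.61 at 24 h and 2.48 and 3.42 at 48 h, with overlapping values. Median folds of the 90 kept genes were 2.83 and 2.60 in the 24 h lists and 3.05 and 3.41 in the 48 h lists, and over all genes of each list they were 3.15 and 2.98 against 3.36 and 3.45. Since folds from lists of different depth are not on 1 scale, they are set side by side here without a comparison.

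Peaks at 0 h, which the rule did not read, were present in 28 of the 46 gained genes and in 26 of the 59 lost genes. In the terms of the comparison, 28 gained genes (60.9%) regained a peak that 0 h had shown and 18 were new at 48 h. Of the lost genes, 26 (44.1%) had kept a 0 h peak through 24 h and 33 had a peak at 24 h only. The share was 88.9% for kept genes, 36.3% for genes in 1 of the 4 lists only, and 48.5% over all 1428 genes. Both 0 h lists held 10 of the lost and 6 of the gained genes, 16.9% and 13.0%, against 72.2% of the kept. That share was 22.1% over all 1428 genes and 11.1% for genes in 1 of the 4 lists only. By this measure lost and gained genes both lay below all genes, and the gained were not above the lost. The 6 gained genes that both 0 h lists and neither 24 h list held were Srsf1, Irak2, Syncrip, Ctnnd1, Arf6 and Ap2s1. A 0 h peak shared a merged region with a 24 h or 48 h peak of the gene in 24 of the 26 lost genes, all but Atp6v1h and Sltm. It did so in 26 of the 28 gained genes, all but Gabarap and Kmt2d.

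The order of these shares depended on the threshold, and it followed which time had a list left out. At a q of 0.05 or less, 59.1% of 22 lost and 56.5% of 23 gained genes had a 0 h peak, so the order turned. The shares were 66.7% of 9 and 20.0% of 5 where q was limited to 1e-05. It also turned without 48 h list 1, at 60.6% of lost and 51.6% of gained genes, and without 48 h list 2, at 62.9% and 37.6%. Without 24 h list 1 or 2 it held, at 35.1% and 62.9% and at 34.1% and 65.3%. In each of these runs the class that then rested on a single list had the lower share. The other class still needed 2 lists, so leaving out a list cannot decide the order. With lists of equal length the shares were 22.9% of 48 and 34.1% of 44, and at matched depth 33.3% of 30 and 48.9% of 47. The 0 h lists are the longest, with 934 and 817 genes. Their input coverage was 124% and 113% of the deepest later list, and their pull-down coverage was 91.5% and 78.0% of the deepest.

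**Figure D4:**
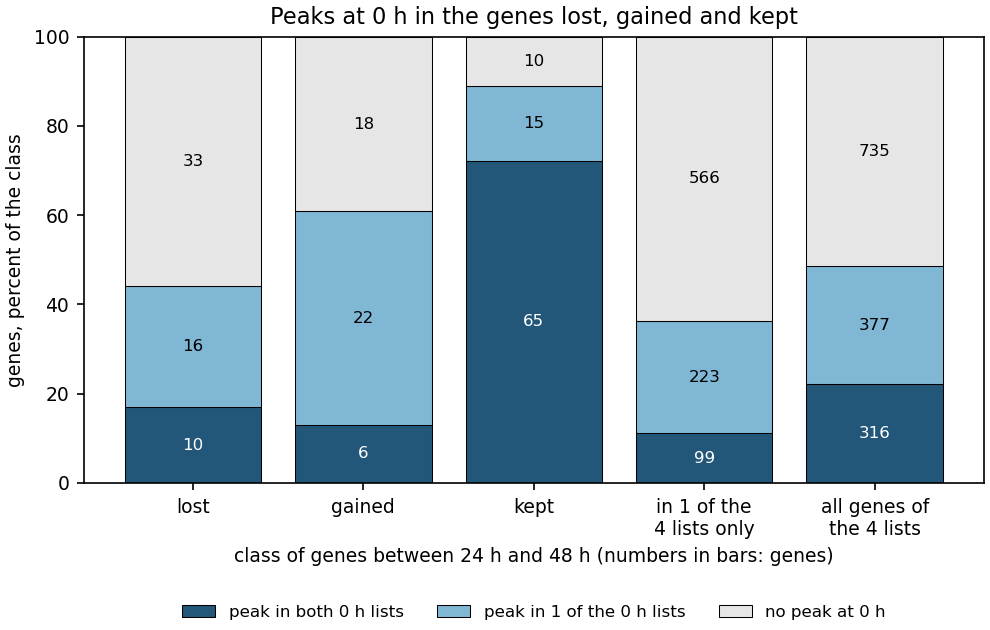
Share of genes (percent of each class) with a peak in both 0 h lists, in 1 of them or in none, for the lost, gained and kept genes, genes in 1 of the 4 lists only and all genes of the 4 lists; numbers in the bars are genes. Peaks at 0 h are in 28 of 46 gained, 26 of 59 lost and 80 of 90 kept genes.

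Lost and gained genes differed in where their strongest peak lay. It was in a 3′ UTR in 32 of the 46 gained genes (69.6%) and in 19 of the 59 lost genes (32.2%), with 45 of 90 (50.0%) for the kept. The order turned at a q of 1e-05 or less, where 55.6% of 9 lost and 40.0% of 5 gained genes had it there. Exons outside the UTRs held it in 27 lost (45.8%) and 10 gained genes (21.7%), introns in 9 and 2, and 5′ UTRs in 4 and 2. By merged regions the 3′ UTR share was 53.8% of gained, 32.8% of lost and 52.7% of kept regions, with 46.0% over all regions. A region counted as 3′ UTR when any of its 24 h or 48 h peaks had its centre there. Regions in more lists had more chances to count, so the kept, the lost or gained, and all regions are not on equal terms. On that count gained regions were near the kept, while lost regions stood below all regions. The lists themselves shifted in the same sense as the genes. Of all peaks, 43.17% and 37.77% lay in a 3′ UTR in the 24 h lists and 46.29% and 59.41% in the 48 h lists, a mean of 40.47% ± 3.82 against 52.85% ± 9.28 (SD, n = 2 lists each). The difference of 12.4 percentage points had a two-sided exact permutation p of 0.333, the smallest it can give. Peaks in exons outside the UTRs made up 41.31% ± 4.19 against 31.97% ± 7.25 (SD, n = 2), with the same exact p = 0.333.

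The place of the lost and gained genes can be read against all genes of their own lists. In the 24 h lists 28.8% and 30.5% of the lost genes had their strongest peak in a 3′ UTR, below the 45.8% and 38.9% of all genes in those lists. In the 48 h lists the gained genes reached 63.0% and 67.4%, against 47.8% and 63.9% of all genes, so in list 2 the share was near the background. Among kept genes the share was 46.7% in both 24 h lists and 52.2% and 56.7% at 48 h. Split by the 0 h lists, the 3′ UTR share was 30.8% of the 26 lost genes with a 0 h peak and 33.3% of the 33 without, and 75.0% of the 28 regained and 61.1% of the 18 new genes. The pseudogenes, which have no UTR, are among the lost genes, and among protein-coding genes alone the shares were 40.4% of 47 lost and 72.7% of 44 gained.

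**Figure D5:**
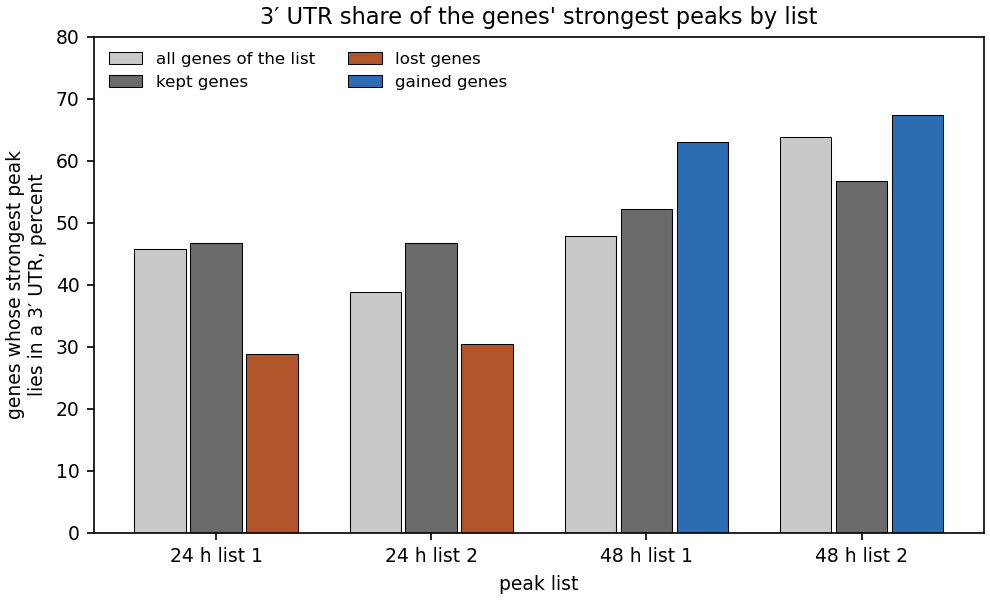
Percent of genes whose strongest peak lies in a 3′ UTR, by list, for all genes of the list, kept genes, lost genes (24 h lists) and gained genes (48 h lists). Lost genes stand at 28.8% and 30.5%, below all genes of the same lists, and gained genes at 63.0% and 67.4%, above 47.8% and near 63.9%.

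Merged regions gave a similar balance, with 58 of 1849 lost (3.14%), 52 gained (2.81%) and 74 kept. Without a single list the counts ranged from 85 to 419 lost and from 73 to 395 gained, and at matched depth there were 29 lost and 56 gained regions. Of the 59 lost genes 42 rested on a region with the lost pattern, and of the 46 gained genes 36 rested on one with the gained pattern. In the other 17 and 10 the lists that held the gene placed its peaks in different regions, as for Cflar, Eprs, Pbrm1 and Rnf6 among the lost and Eif5, Ndel1, Fosl2 and Anxa2 among the gained. Other lost genes on more than 1 region were Anxa3, Slk, Wbp4, Dek, Pafah1b1, Sltm, Gm5778 and Gm4876, with folds between 2.25 and 4.56 at 24 h. Other gained genes on more than 1 region were Ctnnd1, Kmt2d, Ggnbp2, Dcun1d3, Cpne3 and Ssr3, with folds between 1.73 and 6.27 at 48 h. At matched depth Wbp4, Dek, Pafah1b1 and Sltm were no longer lost, nor were Cpne3, Ssr3 and Anxa2 gained. A 0 h peak was present in 31 lost regions (53.4%), 25 gained regions (48.1%) and 67 kept regions (90.5%), with 38.0% over all regions, so by regions the lost were not below the gained.

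Some regions came or went inside genes that kept a peak elsewhere. Eif5b, an initiation factor that was in all 4 lists, had both kinds. Its exon region at chr1:38058002-38058528 had folds of 3.16 and 2.36 at 24 h and was lost, and its intron region at chr1:38087960-38088418 had 5.03 and 4.73 at 48 h and was gained. Hspa4, a chaperone of the HSP70 family, gained an exon region with folds of 2.82 and 2.52, and Anxa5, a phosphatidylserine-binding annexin, lost an exon region with 2.3 and 2.71. Eif1ax gained a 3′ UTR region at chrX:158168452-158168711 with 5.40 and 5.87 at 48 h and none at 0 h. These genes were chosen after their values were seen.

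Outside genes of the authors' annotation lay 8 lost and 7 gained regions. The strongest lost one, chr4:132257875-132258111, had folds of 3.73 and 7.60 at 24 h, with a −log10 q of 10.0 and 25.5, and no peak at 0 h. Another, chr1:5232326-5232652, had 3.78 and 3.76 at 24 h and 2.76 and 3.72 at 0 h. By q the strongest gained one was chrX:72538943-72539190, with folds of 3.37 and 2.80 at 48 h, a −log10 q of 19.9 and 7.65, and 3.91 in list 2 of 0 h. The gained region chr14:55135887-55136193 had 4.66 and 2.67 at 48 h and 6.35 and 7.68 in the 0 h lists. These regions were chosen after their values were seen.

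Gene lists drawn from pathways of the macrophage contributed few members, and their counts are set beside 4.13% lost and 3.22% gained over all genes. Of 22 genes of the interferon-γ receptor, JAK, STAT and IRF family 4 had a peak in the 4 lists, with Jak2 gained and none lost. Of 56 interferon-induced effectors 9 had a peak, none was lost or gained, and Slfn2 was kept with folds of 2.33 and 1.89 at 24 h and 2.65 and 3.59 at 48 h. Antigen presentation was nearly empty, with 1 of 23 genes of MHC class I presentation and 2 of 15 of class II. In the alternative activation list 9 of 40 had a peak, with Stat6 lost, Cd36 gained and Hmox1 kept, the haem oxygenase, with 1.91 and 1.89 at 24 h and 2.43 and 3.42 at 48 h. Of 39 NF-κB feedback and inflammatory genes 9 had a peak and none was lost or gained.

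In lists of housekeeping functions the share of genes with a peak ran from 8.86% of cytosolic ribosomal proteins to 46.7% of splicing factors, and each list below held at most 1 lost and 1 gained gene. Of 61 genes of small GTPases and vesicle traffic 22 had a peak, with Stx4a lost, Arf6 gained and 6 kept. Of 60 splicing factors 28 had a peak, with Srsf1 gained and 3 kept, and of 50 translation factors 16, with Etf1 lost, Eif5 gained and 3 kept. In the lysosome list 15 of 52 had a peak, with Atp6v1h lost and Ctss, Atp6ap2 and Atp6v1c1 kept. Ctss, the protease of class II processing, had folds of 1.85 and 1.65 at 24 h and 4.24 and 2.17 at 48 h and no peak at 0 h. Of 46 chaperones 19 had a peak and of 52 actin and tubulin genes 16, with none lost or gained and 2 and 6 kept. Of 79 cytosolic ribosomal proteins 7 had a peak, with Rpl41 gained.

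Genes just outside the rule were more numerous than those inside it. There were 73 genes in both 24 h lists and 1 of the 48 h lists, and 69 in 1 of the 24 h lists and both 48 h lists. Inflammatory and immune genes stood on both sides, with Cxcr4 and Tab2 among the latter, and their shares were not compared. Nfkbia, Nfkbiz and Cxcl2 were among the former. Nfkbia, the inhibitor of NF-κB, had 3′ UTR folds of 4.38 and 4.67 at 24 h and 2.70 in list 2 of 48 h. Nfkbiz had 4.45 and 3.74 at 24 h and 3.90 in list 1 of 48 h, and the chemokine Cxcl2 had 3.56 and 3.27 at 24 h and 4.26 in list 2 of 48 h. Among the latter, Ifngr2, a chain of the interferon-γ receptor, had 4.32 in list 2 of 24 h and 3.32 and 4.81 at 48 h. Vegfa, the endothelial growth factor, had 3.84 in list 1 of 24 h and 2.92 and 3.81 at 48 h. In the single list that kept a gene of the former kind from being lost, the median −log10 p was 5.97, and in that which kept a gene of the latter kind from being gained it was 6.29. Both medians are above those of the lost and gained genes themselves. The genes named here were chosen after their values were seen.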

How the data were processed

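RIP-seq of ac4C was deposited as 1 peak table per list. The build GRCm39 and the tools MACS2 2.1.0 and BWA 0.7.12 are named in the submitters' processing notes, with neither role nor settings. BWA places no read across a splice junction, which can thin peaks at exon ends. Per the file headers each row gives the authors' fold enrichment (a ratio), −log10 p and −log10 q for 1 summit and 1 gene; the smallest −log10 p lies near p of 0.005, without correction for the number of sites, and peaks were called per list. Total RNA libraries were not analysed here, and some genes of the classes are not reported here. Positions are as deposited; the base from which starts count is unknown, a possible error of 1 base.

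A gene held a peak when the authors' annotation put the peak centre inside it, and peaks overlapping by 1 base were merged into regions. Gene types came by symbol from a RefSeq GRCm38.p6 table (95.2% of 2060 symbols matched). Fragments and input coverage at each summit were recovered from fold and p (100% of summits within 0.005 of −log10 p, tested on simulated data), and background input gave relative depth. For matched depth they were scaled to the shallowest 48 h list and p recomputed at 0.005. That list was left unchanged, and peaks could only drop out of the others. Two-sided exact permutation tests over lists compared the means. Genes were named by rule: the 15 highest protein-coding lost and gained genes by the weaker −log10 p of their lists, 3 of each not coding, lost or gained members of the gene lists or on several regions, and the 8 highest kept. Other genes named, kept members of the gene lists included, were chosen after their values were seen. Members and lists were chosen with earlier results of these data known. Alternatives were q of 0.05 or 1e-05, a fold of 4, equal list length, matched depth, each list left out, other gene assignments and other merging. Python 3.11.15, pandas 2.3.3, NumPy 2.4.6, SciPy 1.17.1 and matplotlib 3.10.9 were used.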

Additional observations from a re-analysis of the deposited data

How the results depend on the processing

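No paired analysis was possible because the numbers of the lists tie no 24 h list to a 48 h list. The log2 ratio of peaks per list turned from -0.09 to 0.42 at a fold of 4 or more and to 0.26 at matched depth, and it is 0.0 by construction at equal list length; that of covered length turned from -0.19 to 0.39 and 0.12. Under q limits of 0.05 and 1e-05, the fold limit of 4 and matched depth, lost genes numbered 22, 9, 7 and 30 and lost regions 21, 11, 3 and 29. At the former 3 settings gained genes numbered 23, 5 and 21 and gained regions 21, 6 and 17; at matched depth they were 47 and 56. The 0 h share of lost genes moved from 44.1% to 59.1%, 66.7% and 14.3% at the former 3 settings and to 22.9% at equal list length; that of gained genes moved from 60.9% to 20.0% at q of 1e-05, 19.0% at a fold of 4 and 34.1% at equal list length. The order of these shares turned at both q limits. Leaving out a 48 h list also turned it. A gained call then rests on a single list and a lost call on both 24 h lists, so these runs cannot decide the order. At q of 1e-05 the 3′ UTR share of lost genes was 55.6% of 9 and of gained genes 40.0% of 5, so its order turned; this share was chosen as a result after seeing the data. Leaving out each list in turn gave 94 to 290 lost and 72 to 282 gained genes, 85 to 419 lost and 73 to 395 gained regions, 0 h shares of 34.1% to 62.9% of lost and 37.6% to 65.3% of gained genes, and 3′ UTR shares of 33.0% to 42.1% and 51.4% to 66.3%. The fewer peaks at stricter settings lower the counts by construction; other causes were not tested. Assignment by exon, by any overlap, protein-coding genes alone, overlap by a share of each peak and merging across gaps of 100 bases left each count within 1.5 times. With 2 lists a time no test can pass 0.05, and the shallower 48 h lists limit what a lost call can show. Scaling left the shallowest 48 h list unchanged, so matched depth put lost and gained calls to an unequal test. The fold limit did not treat the times alike either, as folds from lists of different depth are not on the same scale.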

Other observations

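Gene Ontology terms in the authors' deposited table give a view that the gene lists do not cover. Among the 1253 annotated genes of the 4 lists, 112 (8.94%) carried the term endoplasmic reticulum and 108 (8.62%) Golgi apparatus. No lost gene of 47 annotated carried either, against 4 and 3 of 44 gained and 7 and 8 of 81 kept genes. ATP binding, carried by 12.1% of all annotated genes, was on 7 lost (14.9%), 2 gained (4.55%) and 11 kept genes (13.6%). The term for positive regulation of transcription by RNA polymerase II, at 10.6% over all, was on 4 lost (8.51%), 9 gained (20.5%) and 16 of 81 kept genes (19.8%). Plasma membrane, at 22.7% over all, was on 9 lost (19.1%), 14 gained (31.8%) and 24 kept genes (29.6%). For the last pair of terms the gained share was thus close to the kept share. These terms were picked after their values were seen from the 25 most frequent, and the differences were not tested.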
